A study of Haplochromis burtoni and Lepidiolamprologus elongatus and Tropheus moorii with 25 samples.

Results

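The subject is 2 genes for anion channels, best4 and cftr, of the 42622 features counted in single cells of cichlid intestine. Both were taken by their symbols, and each was found once in the feature list of every library. Intestine of 25 African cichlid species was flushed, cut up, dissociated with dispase and loaded on a 10x Chromium 3' v3.1 device, with 1 library per species. The labels give the tissue as intestine and give no strain, sex, age, diet, site or batch. Each species is a group of 1 library, so no pair of species was tested and spread is given over species. The species were Haplochromis burtoni, Lepidiolamprologus elongatus, Tropheus moorii, Callochromis pleurospilus, Cyprichromis coloratus, Julidochromis ornatus, Lepidiolamprologus attenuatus, Neolamprologus brevis, Perissodus microlepis, Petrochromis orthognathus, Telmatochromis vittatus, Boulengerochromis microlepis, Eretmodus cyanostictus, Triglachromis otostigma, Xenotilapia spiloptera, Limnotilapia dardennii, Oreochromis niloticus, Trematocara zebra, Haplotaxodon microlepis, Cyphotilapia frontosa, Benthochromis horii, Bathybates ferox, Shuja horei, Simochromis diagramma and Neolamprologus brichardi. Every species was counted against the same feature list, whose reference species and annotation are not given in the sources used here. A lower true level and a poorer match of a species' reads to that list cannot be told apart.

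CFTR is a chloride and bicarbonate channel of the apical membrane that opens when cyclic AMP activates protein kinase A. It sets how much fluid an epithelium secretes, and its loss causes cystic fibrosis in humans. Bestrophin-4, the product of best4, belongs to a family of anion channels opened by calcium. In human intestine a rare absorptive-lineage cell is named after BEST4. In rat small intestine, scattered cells with very high CFTR are known as CFTR High Expresser cells, and best4 cells of zebrafish intestine also express cftr.

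After filtering, 98143 cell barcodes with 417798776 UMIs remained. Each UMI, a random tag added before amplification, stands for 1 RNA molecule. Trematocara zebra kept the fewest barcodes (1063) and Shuja horei the most (6544). The median UMIs per barcode were lowest in Simochromis diagramma (1428) and highest in Trematocara zebra (5896). Barcodes were clustered without best4, cftr and the mitochondrial genes, so neither gene shaped the clusters. Clusters with pan-epithelial markers held 39972 barcodes, those with leukocyte markers 55671 and other clusters 2500. The epithelial share ran from 16.8% in Julidochromis ornatus to 84.8% in Haplotaxodon microlepis, with a median of 38.4%. T- or NK-like clusters, which should lack both channels, held 31995 barcodes and served as the background. The libraries of Haplotaxodon microlepis and Trematocara zebra stand apart, since exactly 5000 and 2000 barcodes were deposited for them. No pair of the 25 libraries shared more than 17 barcodes.

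Both genes were detected in all 25 species, in a small share of barcodes. In all, best4 had 21582 UMIs in 2223 barcodes (2.27%) and cftr had 25963 UMIs in 4040 barcodes (4.12%). The level of a gene is given as UMIs per 1000000 UMIs of the kept barcodes (CPM), with exact Poisson intervals at 95% that cover counting error only. The level of best4 was 7.77 CPM at its lowest, in Perissodus microlepis (6.57 to 9.12), 31.3 CPM at the median and 219 CPM at its highest, in Triglachromis otostigma (212 to 226). It averaged 54.7 ± 47.7 CPM (SD, n = 25 libraries). After Triglachromis otostigma came Telmatochromis vittatus with 122 CPM, Callochromis pleurospilus with 112 CPM and Haplochromis burtoni with 111 CPM. The low end held Shuja horei with 17.2 CPM, Cyphotilapia frontosa with 15.9 CPM and Simochromis diagramma with 10.5 CPM, just above Perissodus microlepis.

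The level of cftr was 12.7 CPM at its lowest, again in Perissodus microlepis (11.2 to 14.4), 46.7 CPM at the median and 167 CPM at its highest, in Haplochromis burtoni (160 to 174). It averaged 67.3 ± 47.4 CPM (SD, n = 25 libraries). Callochromis pleurospilus with 156 CPM, Telmatochromis vittatus with 152 CPM and Lepidiolamprologus elongatus with 146 CPM followed Haplochromis burtoni closely. Perissodus microlepis and Simochromis diagramma, with 14.6 CPM of cftr, were the lowest libraries for both genes. Triglachromis otostigma, first for best4, had 85.0 CPM of cftr, and Cyphotilapia frontosa, among the lowest for best4, had 69.0 CPM of cftr.

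**Figure D1:**
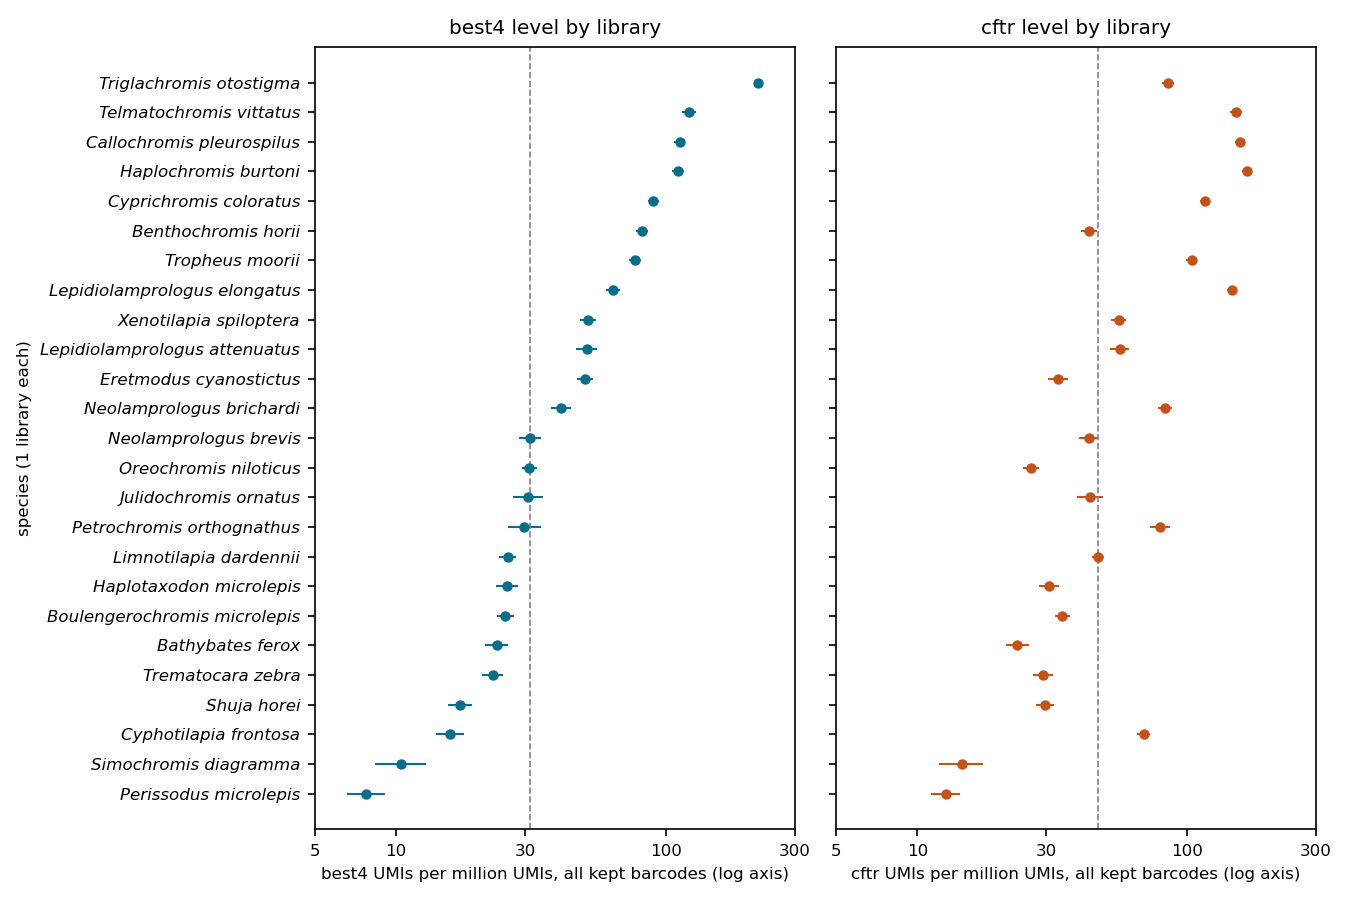
Level of best4 (left) and cftr (right) in CPM on log axes, 1 row per species and library, ordered by best4; bars are exact Poisson 95% intervals. Levels of best4 run from 7.77 to 219 CPM and those of cftr from 12.7 to 167 CPM, and Perissodus microlepis is lowest for both.

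Shares of positive barcodes gave another order, and many detections rested on single UMIs. At least 1 best4 UMI was found in 0.410% of barcodes in Simochromis diagramma, 1.88% at the median and 8.38% in Haplotaxodon microlepis (7.46% to 9.37%, an exact Clopper-Pearson interval at 95%). For cftr the share was 0.791% in Perissodus microlepis, 3.40% at the median and 11.9% in Cyprichromis coloratus (10.9% to 13.1%). Haplotaxodon microlepis led the best4 shares although its level, 25.8 CPM, was below the median. In that library 86.9% of the 282 best4-positive barcodes held a single best4 UMI, against 20.6% at the median of the libraries. T- or NK-like barcodes were positive for best4 in 0.163% and for cftr in 0.275%. Their median depth was 1687 UMIs at the median library, against 3096 UMIs in epithelial clusters. Thinned to 1000 UMIs per barcode, with 91 to 1364 shallower barcodes left out per library, the best4 share was lowest in Simochromis diagramma (0.174%) and highest in Triglachromis otostigma (4.47%), and that of Haplotaxodon microlepis was 1.74%. The thinned cftr shares ran from 0.582% to 4.58%.

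The 2 genes were found together far more often than independent detection would give. Of all kept barcodes, 1742 held both genes, 481 held best4 alone and 2298 held cftr alone. The number of double-positive barcodes was 3.61 times the number expected from independence in Haplotaxodon microlepis, 20.3 times at the median and 126.5 times in Perissodus microlepis, and above 1 in 25 of 25 libraries. After thinning to 1000 UMIs per barcode the ratio was 8.0 in Haplotaxodon microlepis, 36.3 at the median and 172 in Perissodus microlepis. In Perissodus microlepis all 14 best4-positive barcodes also held cftr, so its ratio is the largest that its numbers of positive barcodes allow. That limit is higher where detection is rarer. Cyprichromis coloratus, where 98.3% of best4-positive barcodes held cftr, had a ratio of 8.23. The ratios, before or after thinning, therefore do not rank the libraries by how strongly the genes go together. The ratio is taken over all kept barcodes, and at the median library 95.2% of best4-positive and 93.9% of cftr-positive barcodes lay in epithelial clusters. The pair was picked with a cluster led by both genes already known, so the overlap is given as a description, with no test.

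The overlap was lopsided. Of best4-positive barcodes, 23.0% held cftr in Haplotaxodon microlepis (18.3% to 28.4%), 38.7% in Eretmodus cyanostictus (26.6% to 51.9%), 87.9% at the median library and 100% in Perissodus microlepis (76.8% to 100%). In Eretmodus cyanostictus 64.5% of best4-positive barcodes lay in epithelial clusters, and 13 of its 38 best4-only barcodes were T- or NK-like. Its T- or NK-like barcodes held best4 in 0.776% of cases, and after thinning 62.1% of its best4-positive barcodes held cftr. Of cftr-positive barcodes, 10.2% held best4 in Cyphotilapia frontosa (7.60% to 13.4%), 52.3% at the median and 90.6% in Telmatochromis vittatus. Barcodes with best4 thus mostly held cftr, while the reverse share differed widely between species. Double-positive barcodes had a median of 8 best4 and 9 cftr UMIs. By contrast, 84.6% of the best4-only and 63.1% of the cftr-only barcodes rested on a single UMI. Where a barcode was called positive with at least 2 UMIs, 93.6% of best4-positive barcodes held cftr and 66.4% of cftr-positive barcodes held best4, as medians over libraries. After thinning to 1000 UMIs these medians were 77.1% and 57.9%. Without Haplotaxodon microlepis and Trematocara zebra they were 89.2% and 53.8%.

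**Figure D2:**
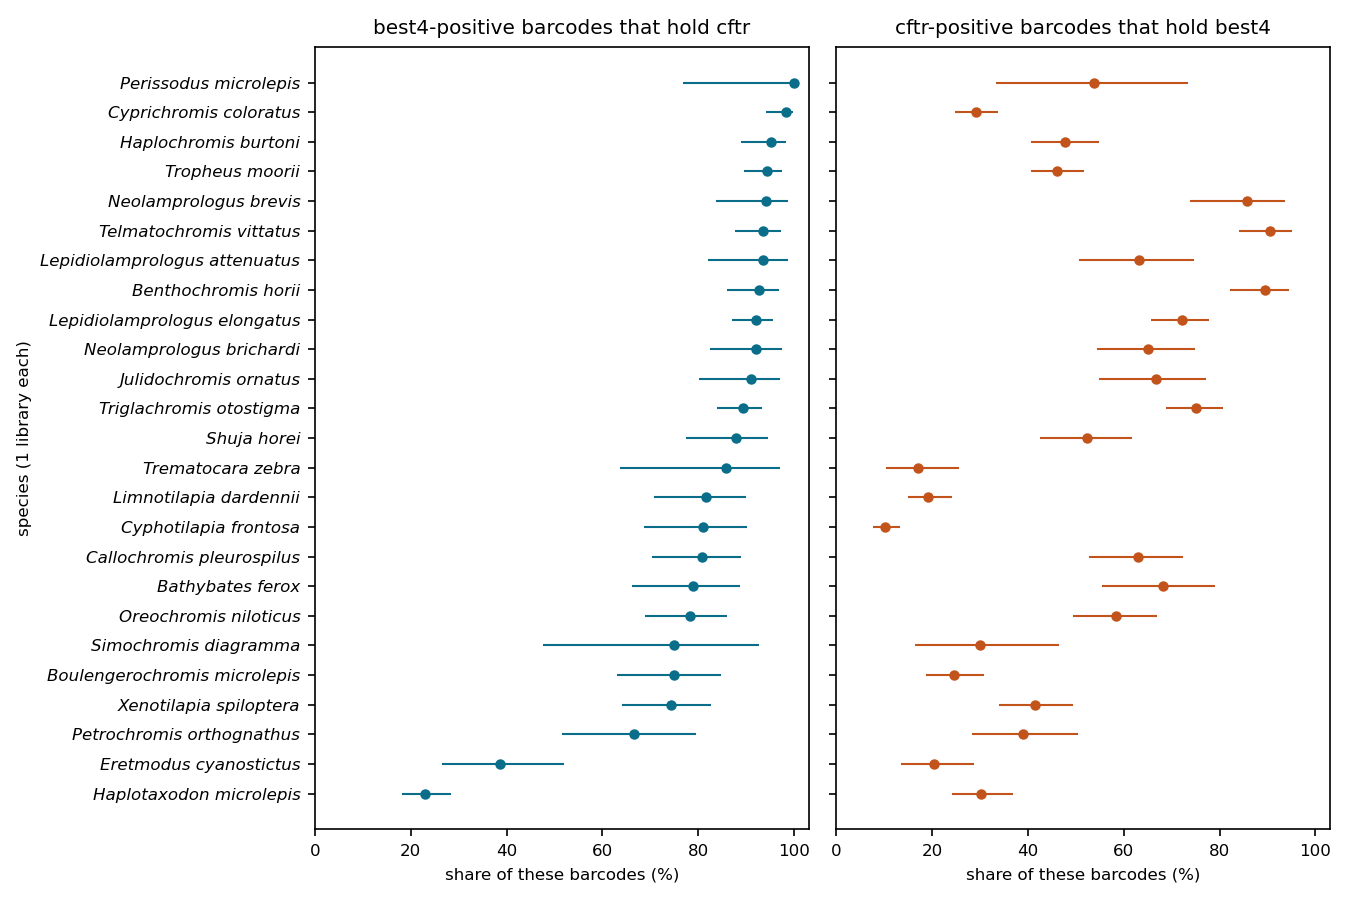
Share of best4-positive barcodes that hold cftr (left) and of cftr-positive barcodes that hold best4 (right), in percent, 1 row per species and library, ordered by the left share; bars are exact Clopper-Pearson 95% intervals. On the left all but Eretmodus cyanostictus (38.7%) and Haplotaxodon microlepis (23.0%) lie at 66.7% or more, while the right shares spread from 10.2% to 90.6%.

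Summed over libraries, cluster 20 held most of the transcripts of both genes. It contained 1520 barcodes, 1.55% of all, and 82.1% of best4 UMIs with 65.9% of cftr UMIs fell in it, although neither gene was used to form it. By library, its share of cftr UMIs was 37.4% in Cyphotilapia frontosa, 64.3% at the median and 94.7% in Perissodus microlepis. Cluster 20 was present in all 25 libraries, from 13 barcodes in Trematocara zebra to 127 in Triglachromis otostigma. As a share of barcodes it ran from 0.416% in Haplotaxodon microlepis to 3.46% in Triglachromis otostigma. Of its barcodes 1296 held both genes, 40 best4 alone, 102 cftr alone and 82 neither. Its pan-epithelial markers summed to 4377 CPM, against 23.5 CPM for the leukocyte markers. It stays unnamed, because only ca7 and hes4 of the other best4-cell markers chosen from human and zebrafish work could be matched in the feature list. Leading genes with a symbol, beside best4 and cftr, were pbx3, meis1 and vasn. At a finer resolution a cluster of 1520 barcodes was likewise led by best4, cftr, pbx3, meis1 and vasn. The barcodes that the 2 clusters share were not counted.

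Within cluster 20, best4 stood at 370 CPM in Shuja horei, 1281 CPM at the median and 4844 CPM in Eretmodus cyanostictus. There, cftr stood at 434 CPM in Simochromis diagramma, 1688 CPM at the median and 4135 CPM in Callochromis pleurospilus. At the median library 90.4% of its barcodes were positive for best4 and 95.2% for cftr. Neither gene was found in 2.82% of cluster 20 barcodes at the median library. That share was 42.3% in Shuja horei and 48.0% in Simochromis diagramma, so the lowest levels include many barcodes without either gene. The balance of the 2 genes differed between the libraries, with 1 per species. Of the UMIs of both genes in cluster 20, best4 made up 26.8% in Petrochromis orthognathus (23.3% to 30.5%), 49.6% at the median and 76.6% in Triglachromis otostigma (75.2% to 77.9%). The interval lay wholly above 50% in 8 libraries and wholly below 50% in 10. These exact Clopper-Pearson intervals treat each UMI as independent and leave out the spread between barcodes and between animals. The counts of libraries are therefore no test of a species. Eretmodus cyanostictus had 68.9% in cluster 20, and Cyphotilapia frontosa had 35.7%. Each library was counted against 1 reference, so a species' match to either gene's sequence and its true balance cannot be told apart.

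Outside cluster 20, the classes of epithelium differed in which of the 2 genes they held. For best4 the next levels were those of goblet-like barcodes, with a median of 35.4 CPM (0 to 365 CPM over 25 libraries), and of enteroendocrine-like barcodes, with 23.2 CPM (0 to 809 CPM). The 809 CPM, in Trematocara zebra, came from 1 barcode, with 195 of the library's 456 best4 UMIs. An unnamed epithelial cluster led by slc12a3, which encodes a sodium-chloride cotransporter, followed with 10.6 CPM (0 to 355 CPM). This is cluster 14. The goblet-like cluster also had 2 of 2 gastric markers up, atp4a and atp4b, and pepsin was among its leading genes. At the finer resolution, best4 and cftr were higher in the goblet-like cluster with these gastric markers up than in the one without. The latter had enterocyte markers up as well. The goblet-like levels are thus not those of goblet cells alone. On the log2(CPM + 10) scale cluster 20 stood 5.03 above goblet-like barcodes (SD 1.41, higher in 25 of 25 libraries). That difference is given as a description. Its test result is left out, since a cluster led by both genes was known when they were chosen. Of the other neighbouring pairs in the order of best4, 0 were called by the sign-flip permutation test, and 0 had an unadjusted p under 0.05. Enterocyte-like barcodes had a median of 1.30 CPM of best4 (0 to 24.2 CPM), and T- or NK-like barcodes 0.577 CPM (0 to 5.34 CPM). Below cluster 20, no class thus differed from the next in the order beyond the spread between libraries, while classes further apart in it did, as the comparison with T- or NK-like barcodes shows.

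For cftr the levels below cluster 20 were those of several epithelial classes. Cluster 17 had no common level. It had 4609, 3042 and 2756 CPM in Callochromis pleurospilus, Xenotilapia spiloptera and Triglachromis otostigma, from 7, 10 and 5 barcodes, and 376 of the 584 UMIs in Callochromis pleurospilus came from 1 barcode. Haplotaxodon microlepis, with 1327 of the cluster's 1674 barcodes, had 20.5 CPM. Medians were 61.0 CPM in cluster 14, 52.0 CPM in lysosome-rich enterocyte-like barcodes, 48.0 CPM in cluster 26 and 45.2 CPM in goblet-like barcodes. Lysosome-rich enterocytes take up and digest luminal protein. They reached 241 CPM of cftr in Cyphotilapia frontosa. Enterocyte-like barcodes had a median of 3.37 CPM of cftr (0 to 42.5 CPM), and T- or NK-like barcodes 1.44 CPM (0 to 6.67 CPM). Fibroblast-, endothelial-, granulocyte- and B- or plasma-like barcodes had a median of 0 CPM for both genes. Cluster 20 stood 3.29 above cluster 17 on the log2(CPM + 10) scale (higher in 7 of 10 libraries). That pair was not called (sign-flip permutation test, p = 0.0159, adjusted p = 0.381), and the difference is likewise a description. Of the other neighbouring pairs in the order of cftr, 0 passed the same test after Benjamini-Hochberg adjustment, and 0 had an unadjusted p under 0.05.

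**Figure D3:**
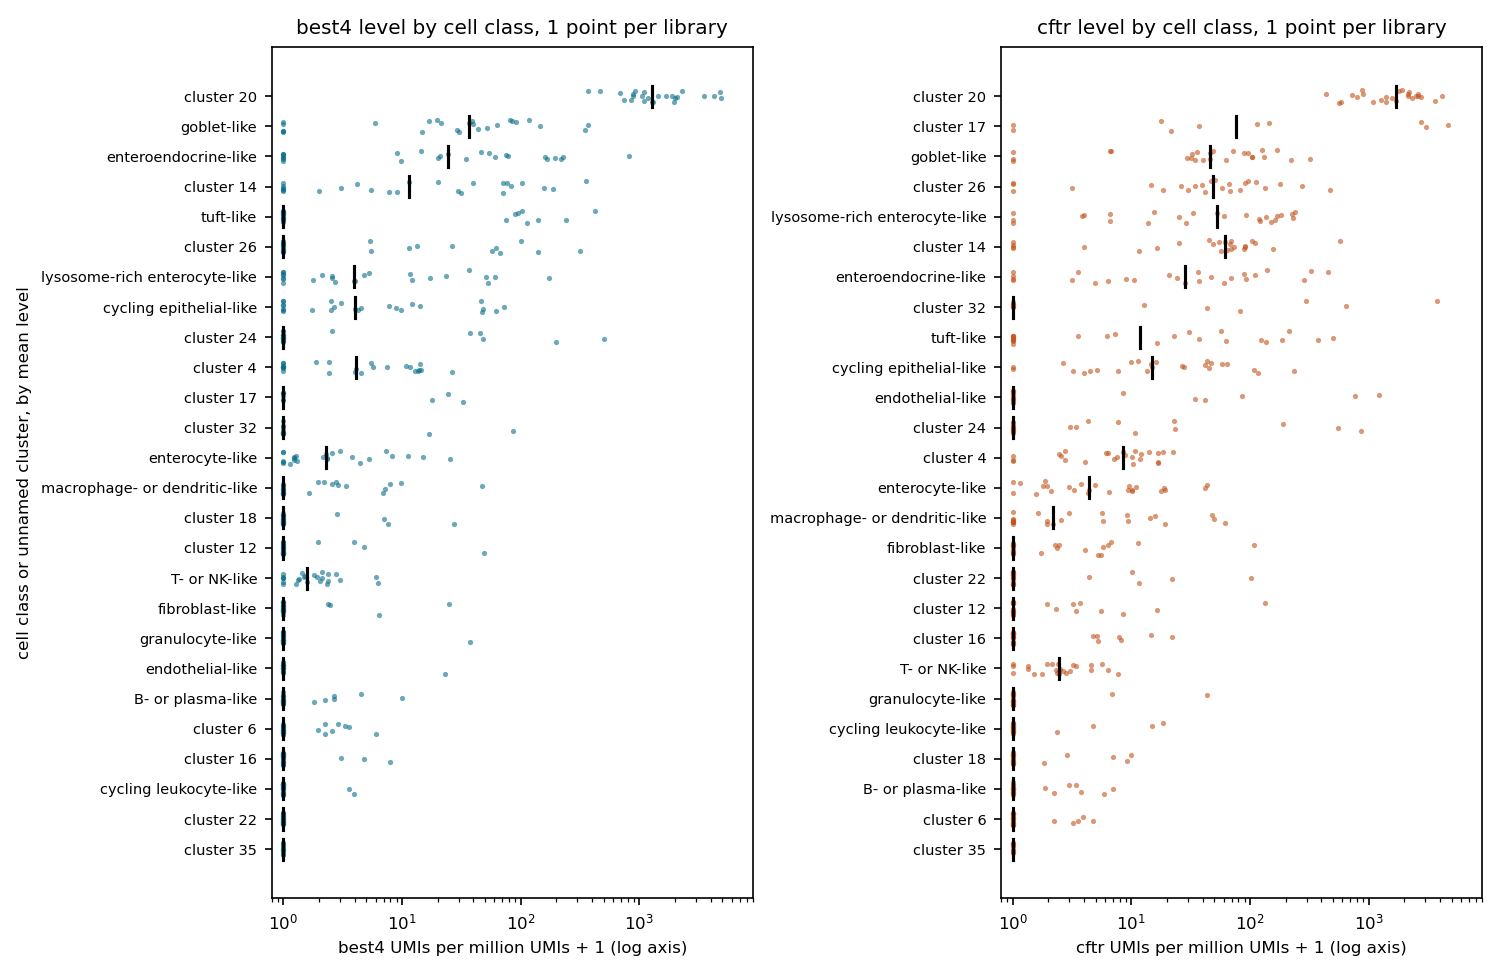
Level of best4 (left) and cftr (right) in each cell class or unnamed cluster, as CPM plus 1 on log axes, with 1 point per library and a black bar at the median; classes run from the highest mean level at the top. Cluster 20 lies far to the right for best4 (370 to 4844 CPM), and for cftr (434 to 4135 CPM) with some libraries of cluster 17 beside it.

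Against T- or NK-like barcodes of the same library, several epithelial classes stood higher for each gene. Differences are on the log2(CPM + 10) scale, tested by sign-flip permutation and adjusted over 50 tests. Counting cluster 20, whose high levels were known beforehand, 9 of 25 classes were higher and 2 lower for best4, and 11 were higher and 3 lower for cftr. The lower calls rested on very low levels. For best4 they were cluster 22, with 0 UMIs, and cycling leukocyte-like barcodes, with 2 UMIs. For cftr they were cluster 6 (-0.17), B- or plasma-like barcodes (-0.13) and cluster 35 (-0.24). A class without UMIs can only equal or fall below the T- or NK-like level. The mean difference could rest on few libraries. Tuft-like barcodes, called higher for best4, were higher in 8 and lower in 12 of 24 libraries, and cluster 26 in 11 and 9 of 24. Goblet-like barcodes were higher for both genes, by 1.97 for best4 (20 of 25 libraries) and 2.25 for cftr (22 of 25), each with an adjusted p of 7.14e-05. Enteroendocrine-like barcodes, which secrete gut hormones, were higher by 1.95 for best4 and 1.80 for cftr. The levels of these 2 classes rested on few barcodes. Of 1606 goblet-like barcodes 57 held both genes, 8 best4 alone and 66 cftr alone. Of 960 enteroendocrine-like barcodes 46 held both, 16 best4 alone and 29 cftr alone. The part of doublets in these levels was not tested, nor was that of gastric cells in the goblet-like levels. Lysosome-rich enterocyte-like barcodes were higher by 0.76 for best4 (15 of 25 libraries, adjusted p = 0.00325) and by 2.19 for cftr (22 of 25, adjusted p = 7.14e-05). Enterocyte-like barcodes were higher by 0.45 for cftr (18 of 25, adjusted p = 0.00185), and their best4 difference was 0.19 (13 of 25, adjusted p = 0.111).

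The gap between the 2 genes was itself tested in each class, as the cftr difference minus the best4 difference. It was 1.43 in lysosome-rich enterocyte-like barcodes (cftr larger in 17 of 25 libraries, permutation test, adjusted p = 0.00312), 1.27 in cluster 26 (19 of 24, adjusted p = 0.002) and 0.70 in cycling epithelial-like barcodes (20 of 25, adjusted p = 0.00333). In cluster 14 it was 0.64 (14 of 25, adjusted p = 0.0342). In these 4 epithelial classes cftr stood further above the T- or NK-like level than best4 did. Of these, cluster 26 also held leukocyte markers. Its pan-epithelial markers summed to 2328 CPM and its leukocyte markers to 524 CPM, with 6 of 6 leukocyte markers at 10 CPM or more. The part of mixed barcodes in its gap was not tested. The gap had the other sign in the leukocyte clusters 6, at -0.12 (cftr larger in 5 of 25 libraries, adjusted p = 0.0412), and 35, at -0.17 (1 of 11, adjusted p = 0.0378). Cluster 35 had 0 CPM of both genes, so its gap only restates the T- or NK-like levels and says nothing of that cluster. Cluster 6 had just 0.98 CPM of best4 and 0.90 CPM of cftr. In goblet-like barcodes the gap was 0.29 (adjusted p = 0.213), and in cluster 20 it was 0.01 with an SD of 0.69 (12 of 25 libraries, adjusted p = 0.935). The pseudocount shortens differences of low levels.

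By number, barcodes with cftr but no best4 UMI lay mainly in absorptive classes and in unnamed epithelial clusters. Of the 2298, 599 were among the 16672 enterocyte-like barcodes and 538 among the 2833 lysosome-rich enterocyte-like ones. Cluster 14 held 316 among 2211 barcodes, cluster 26 142 among 942, cluster 17 135 among 1674 and cluster 20 102 among 1520. Enterocyte-like barcodes were the largest epithelial class. Their share with cftr alone was below that of all epithelial barcodes, 2108 among 39972. Cyphotilapia frontosa gave 218 and Cyprichromis coloratus 210 of the 599 enterocyte-like ones. Epithelial barcodes outside cluster 20 held a cftr UMI in 0.392% of cases in Perissodus microlepis, 5.26% at the median and 17.8% in Tropheus moorii, against a median of 0.215% in T- or NK-like barcodes. For best4 the same shares were 0% in Perissodus microlepis, 1.14% at the median and 9.51% in Haplotaxodon microlepis, against a median of 0.0983% in T- or NK-like barcodes. Outside cluster 20, then, cftr was detected in epithelial barcodes of every species, and best4 in epithelial barcodes of 24.

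Haplotaxodon microlepis differed from the other species in where its best4 lay. Cluster 20 held 28.6% of its best4 UMIs, the lowest share of any library, against 83.4% at the median. Of the 481 best4-only barcodes of all species, 217 came from this library. Cluster 17 held 169 of these, with 51 double-positive and 108 cftr-only barcodes of the same library. That cluster drew 79.3% of its barcodes from Haplotaxodon microlepis, and its pan-epithelial and leukocyte markers summed to 1103 and 163 CPM. Best4-positive barcodes of the library had a median of 9279 UMIs, against 2870 UMIs for all its kept barcodes. None of its 294 T- or NK-like barcodes held best4, which allows a share of up to 1.02%, at a median of 1935 UMIs. After thinning to 1000 UMIs per barcode, 1.74% of its barcodes held best4, against 8.38% before, and 43 rather than 217 were best4-only. The part of free RNA was not tested.

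Levels of the 2 genes rose together across the 25 libraries. On the log2(CPM + 1) scale Pearson's r was 0.80 (permutation p = 1e-05, adjusted p = 4e-05) and Spearman's rho was 0.79 (p = 3e-05, adjusted p = 0.00012), over 8 relations tested. Without the 2 libraries farthest from the median best4 level, Triglachromis otostigma and Telmatochromis vittatus, r was 0.81. In epithelial clusters alone r was 0.86 and rho 0.84, and r was 0.86 without the 2 farthest. Within cluster 20 alone r was 0.70 (adjusted p = 0.0004) and rho 0.63 (adjusted p = 0.00317). In epithelial clusters without cluster 20 r was 0.60 (adjusted p = 0.00397) and rho 0.51 (adjusted p = 0.0246), and r was 0.41 without the 2 farthest libraries. The relation was thus present over all barcodes, within that cluster and outside it, but these are not separate lines of support. Barcodes with neither gene lower both levels within cluster 20. They made up 42.3% of it in Shuja horei, with 370 CPM of best4 and 583 CPM of cftr. In Simochromis diagramma they made up 48.0%, with 466 and 434 CPM. The part of such barcodes in the relation within cluster 20 was not tested. Cluster 20 held 82.1% of best4 and 65.9% of cftr UMIs. Both levels over all barcodes thus depend on its share of barcodes and on the levels within it. The relation of either level with that share was not tested. In epithelial barcodes outside it, 3250 best4 UMIs lay in double-positive and 430 in best4-only barcodes. For cftr, 3282 UMIs lay in double-positive and 5085 in cftr-only barcodes there. No model of the species' ancestry was used, and the labels name no batch in which to recompute it.

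**Figure D4:**
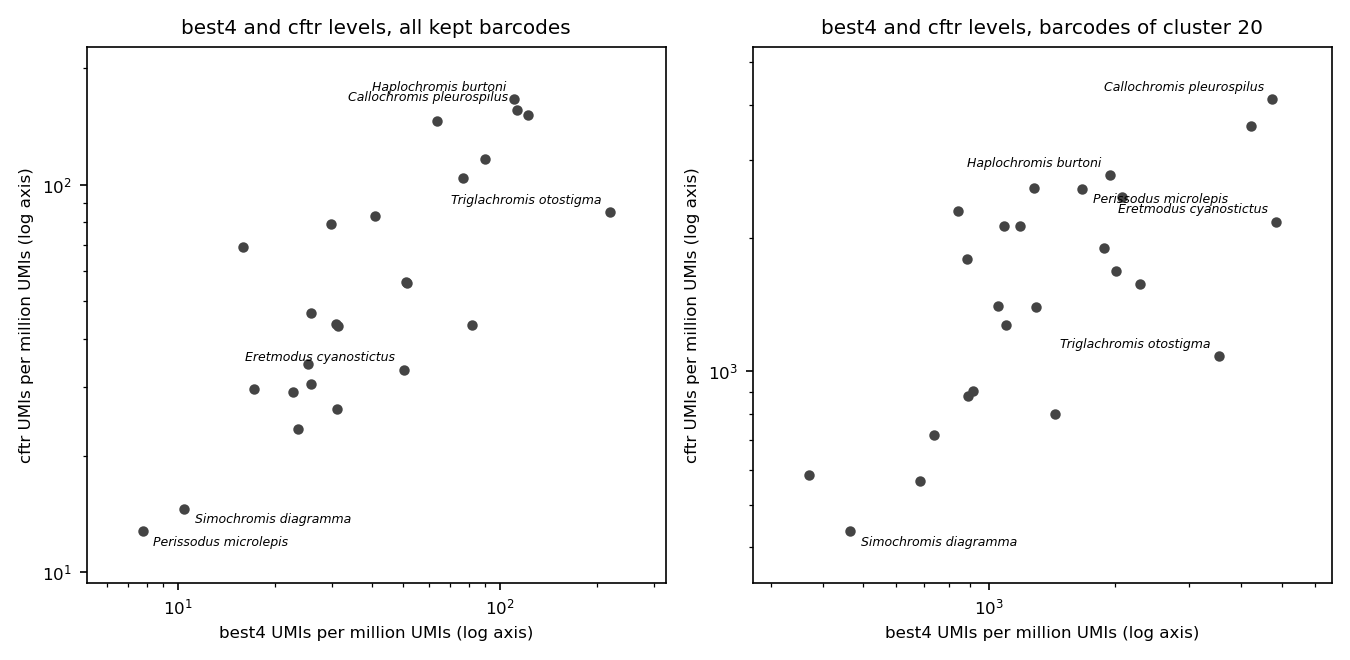
Level of cftr against level of best4 in CPM on log axes, 1 point per library (25 libraries), over all kept barcodes and within cluster 20. The points rise together in both panels (Pearson's r 0.80 and 0.70 on the log2 scale), with Perissodus microlepis lowest over all barcodes.

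No relation of either level with the depth or make-up of the libraries passed the test. Pearson's r with the log10 median UMIs per barcode was 0.13 for best4 (adjusted p = 0.874) and 0.003 for cftr (adjusted p = 0.989). With the epithelial share of barcodes it was -0.24 for best4 and -0.24 for cftr (adjusted p = 0.48 for each). With the log10 number of kept barcodes it was -0.05 for best4 and -0.03 for cftr (adjusted p = 0.989 for each). These p-values come from permutation tests over 25 libraries, and a p that misses the threshold does not show that there is no relation.

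Double-positive epithelial barcodes differed from epithelial barcodes with neither gene in many genes. Sums of UMIs per library and class were compared with edgeR's quasi-likelihood test with the library as a block and Benjamini-Hochberg adjustment, in all 25 libraries. Of 9398 genes tested, 991 were higher (10.5%) and 1661 lower (17.7%) in double-positive barcodes at an adjusted p under 0.05, 28.2% in all, so a call is common here. Of the called genes, 1416 have a LOC identifier and are not named. The median difference of all tested genes was -0.11 on the log2 scale. Double-positive barcodes had a median of 5299 UMIs and double-negative ones 2836 UMIs at the median library. The double-negative sums mix cell classes, and enterocyte-like clusters held 16672 of the 39972 epithelial barcodes. The part of that mix in the differences was not tested. best4 and cftr define the groups and were not tested.

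The transcription factor genes meis1 and pbx3 were among the 10 largest increases that the naming rule gave. The homeobox gene meis1 had 66.9 CPM at its lowest, 180 CPM at the median and 903 CPM at its highest in double-positive barcodes, against 0, 0.736 and 6.27 CPM in double-negative ones. The ranges of the 2 classes did not overlap, and the log2 difference was 7.50 ± 0.35 (SE, adjusted p = 7.77e-18). Its partner pbx3, another homeobox gene, had 14.5, 107 and 462 CPM in double-positive barcodes, against 0.596, 1.82 and 8.83 CPM in double-negative ones. Its log2 difference was 5.41 ± 0.19 (SE, adjusted p = 4.47e-21), with double-positive barcodes higher in 25 of 25 libraries. The Notch target hes1 had a median of 50.7 CPM and up to 226 CPM in double-positive barcodes, against 3.29 to 31.8 CPM in double-negative ones, and rose by 1.81 ± 0.23 on the log2 scale (22 of 25 libraries, adjusted p = 2e-07). The factor hhex fell by 1.76 on the log2 scale (20 of 25) and sox13 by 2.33 (22 of 25).

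The other large increases were in genes of varied roles. The gene vasn, whose product binds TGF-beta in mammals, had 17.1, 55.6 and 304 CPM in double-positive barcodes, against 0, 0.290 and 1.62 CPM in double-negative ones, lowest, median and highest. Its log2 difference was 7.54 ± 0.26 (SE, adjusted p = 4.47e-21). Genes cfap221, which encodes a protein of motile cilia, and fam167b rose by 7.36 and 6.64 on the log2 scale. The peptidase gene mme (4.37), the adhesion receptor gene adgrg6 (3.82), the cytoskeletal regulator shroom4 (3.69), ppp1r1c (3.46), which encodes an inhibitor of protein phosphatase 1, and the vesicle transport gene rab27b (3.18) completed the 10 largest log2 increases. Each of the 10 was higher in at least 24 of 25 libraries. In ppp1r1c the classes overlapped, with 44.6 to 1858 CPM in double-positive and 3.30 to 89.1 CPM in double-negative barcodes.

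Genes known to act on CFTR were mixed, with 16 of 23 list members matched and 8 tested. Of these 5 rose, 2 fell and 1 was not called, with a median log2 difference of 0.59. The shares over all 9398 genes tested were 10.5% higher and 17.7% lower. The kinase gene wnk4, a regulator of ion transport, had a median of 16.5 CPM in double-positive and 1.59 CPM in double-negative barcodes, and rose by 3.09 ± 0.25 (SE, 24 of 25 libraries, adjusted p = 1.66e-11). The adenylyl cyclase gene adcy6, whose product makes the cyclic AMP that activates CFTR, had 13.3, 57.5 and 238 CPM in double-positive barcodes, against 4.12, 12.7 and 34.1 CPM in double-negative ones, lowest, median and highest. It was higher in 25 of 25 libraries although the ranges overlapped (log2 difference 2.05 ± 0.19, adjusted p = 2.37e-10). The cytoskeletal linker ezr (0.86), the cyclic AMP phosphodiesterase pde4d (0.85) and the apical fusion protein gene stx3 (0.33) also rose. The scaffold gene pdzk1 fell by 0.94 and the apical transport motor myo5b by 0.51 on the log2 scale. The protein kinase A subunit gene prkaca had a difference of 0.29 (adjusted p = 0.176).

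Ion transport genes were mostly lower, with 13 of 43 list members matched and 7 tested. Of these 1 rose and 5 fell, and the median log2 difference was -0.76. Over all 9398 genes tested, 10.5% were higher and 17.7% lower. The anion exchanger slc4a2 rose by 0.68 (21 of 25 libraries, adjusted p = 0.000946). The anion exchanger slc26a6 fell by 1.30 and the sodium-potassium-chloride cotransporter slc12a1 by 1.36 on the log2 scale, and the carbonic anhydrase ca7 fell by 1.01 (23 of 25 libraries). In human BEST4 cells CA7 is a marker, whereas here ca7 had a median of 16.6 CPM in double-positive and 36.8 CPM in double-negative barcodes. The channel genes clcn2 and kcnj15 fell by 0.56 and 0.76. The bicarbonate cotransporter slc4a4 had medians of 142 and 139 CPM in double-positive and double-negative barcodes (log2 difference -0.48, adjusted p = 0.0722).

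Of the list of Notch and best4-cell identity genes, 10 of 18 were matched and 5 tested. Among all 9398 genes tested, 10.5% were higher and 17.7% lower. Beside meis1 and hes1, which rose, tbx3 fell by 0.52 on the log2 scale. The Notch ligand genes dll4 (0.47, adjusted p = 0.172) and jag1 (0.25, adjusted p = 0.216) were not called. The 10 largest falls that the naming rule gave included the peptide hormone genes nmb (-3.70 ± 0.71, SE), tac1 (-2.58), adcyap1 (-2.44) and cck (-2.34) and the tuft cell channel trpm5 (-2.80). Beside sox13 and hhex, the others were ank3 (-2.45), the enterocyte protease tmprss15 (-1.89) and lg14h11orf53 (-1.81). Without the library block 14 of the named genes lost their call, and stx3 also lost its call without the low-count filter and after thinning. Thinning left only part of the named genes testable, of which 13 kept their result, 1 gained a call and 1, stx3, lost it. The other named genes were not tested at that depth.

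**Figure D5:**
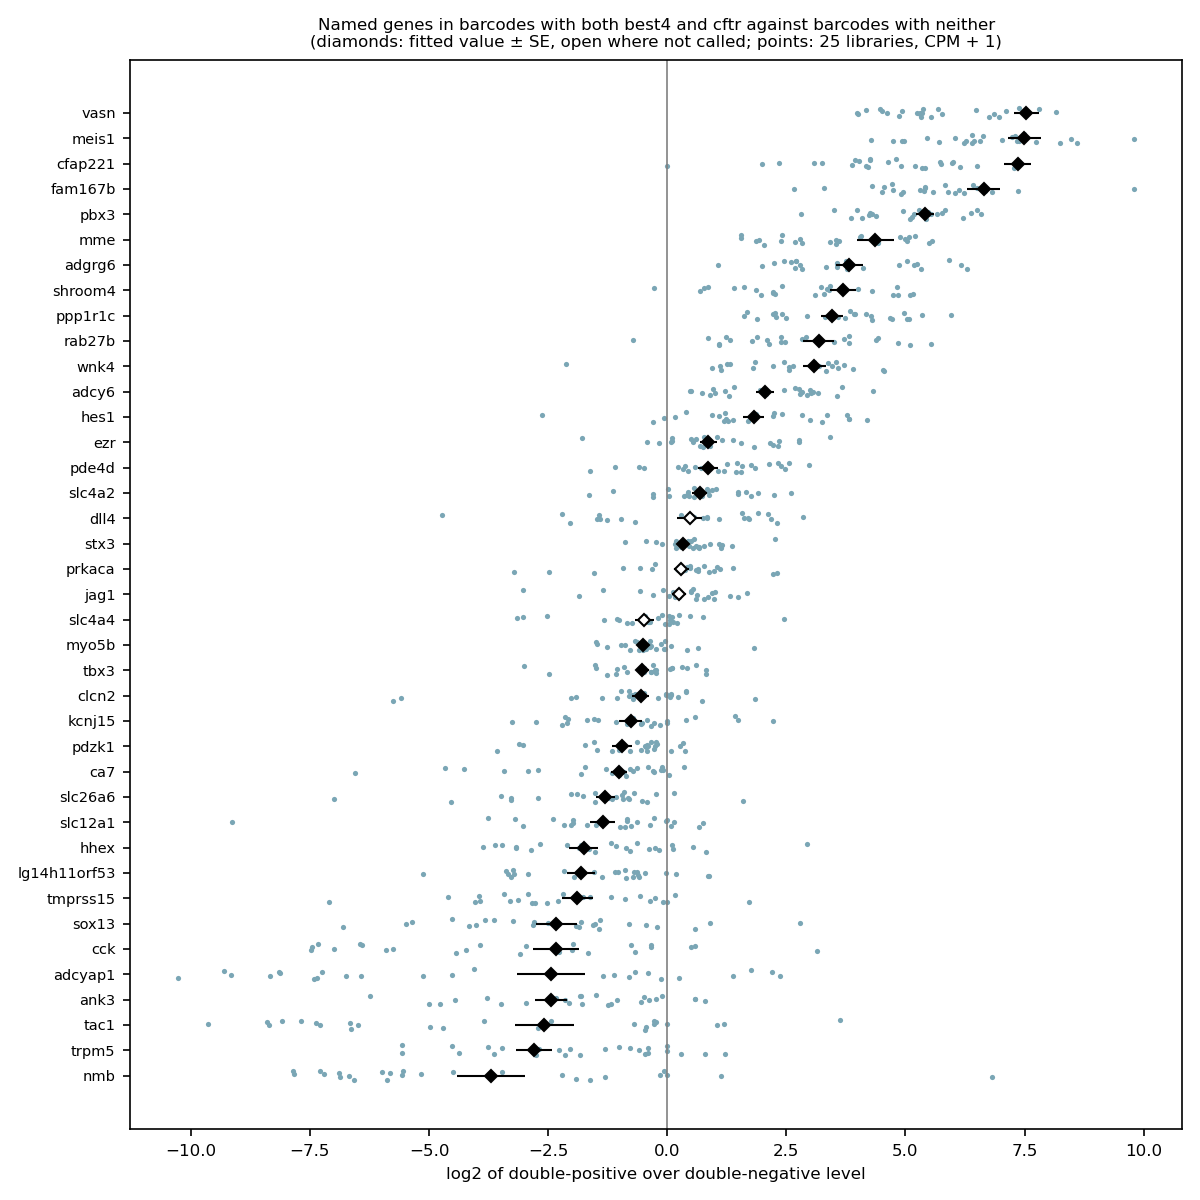
Log2 ratio of the level in double-positive over double-negative epithelial barcodes for the 39 named genes, with diamonds at the edgeR value ± SE (open where not called) and 1 point per library on CPM + 1. At the top vasn, meis1 and cfap221 lie above 7, and at the bottom nmb lies at -3.70.

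Some of the higher genes were also higher in double-positive barcodes outside cluster 20, at lower levels than inside it, and others were not highest there. Summed over libraries, meis1 had 299 CPM in the 1296 double-positive barcodes of cluster 20, 46.4 CPM in the 421 double-positive epithelial barcodes of other clusters and 0.858 CPM in the 35677 double-negative barcodes there. It was detected in 76.2%, 46.1% and 0.359% of these barcodes. In the same order, the barcodes held 10291348, 10193757 and 213311099 UMIs of all genes. The 421 thus held nearly as many UMIs as the 1296, and were deeper per barcode on average than either other class. For pbx3 the levels were 151, 22.8 and 1.76 CPM, for vasn 98.8, 17.1 and 0.267 CPM, for adcy6 77.0, 25.5 and 13.6 CPM, and for wnk4 22.6, 5.49 and 1.86 CPM. Levels of the channels themselves were also lower outside. Double-positive barcodes of cluster 20 had 1705 CPM of best4 and 1619 CPM of cftr, and those of other clusters 319 and 322 CPM. Barcodes outside cluster 20 with 1 gene alone had little meis1, at 4.06 CPM in the 348 with best4 only and 6.31 CPM in the 2006 with cftr only. Other called genes were as high or higher in cftr-only barcodes outside cluster 20. There hes1 had 20.8 CPM in double-positive, 40.8 CPM in cftr-only and 12.4 CPM in double-negative barcodes, and slc4a2 had 15.0, 31.1 and 12.8 CPM in the same order. Levels of stx3 were 59.7 CPM in double-positive and 59.0 CPM in cftr-only barcodes, and those of ezr were 50.2 CPM in both. The 82 double-negative barcodes inside cluster 20, from 18 libraries, had 51.1 CPM of meis1 and 57.5 CPM of pbx3, found in 9 and 11 libraries. All the called higher genes compared, except ezr, were lower in them than in double-positive barcodes of cluster 20. Levels were 11.2 against 162 CPM for fam167b, 6.38 against 100 CPM for adgrg6 and 1.60 against 22.6 CPM for wnk4. For ezr they were 308 against 73.4 CPM. These are pooled sums with no test. The genes were picked as higher in all double-positive epithelial barcodes, the 421 included, so their levels in the 421 are no separate support. The part of the greater depth of the 421 in their levels and detected shares was not tested, nor was that of doublets left after filtering.

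Barcodes with best4 alone and cftr alone differed in few genes, and the result was fragile. Only 9 libraries had at least 10 epithelial barcodes of each class. Of 2515 genes tested by edgeR, 37 were higher (1.47%) and 19 lower (0.755%) in best4-only barcodes, 2.23% in all. Higher genes included the lipid genes mogat2 (log2 difference 1.80 ± 0.41, SE, adjusted p = 0.0402) and apoa4a (4.01-fold), the ceramidase gene asah2 (log2 difference 2.09) and the retinol-binding protein gene rbp2 (1.85). The anion exchanger slc26a6, on the ion transport list, also rose (1.56). Lower genes included unc93a (-2.86 ± 0.60, SE), the RNA-binding protein gene rbpms (-2.51 ± 0.39, adjusted p = 0.0179, lower in 9 of 9 libraries), the chemokine receptor gene cxcr4 (-2.11) and the lysosomal gene psap (-1.45). The 2 groups also differed in cell classes. Over all libraries, cluster 17 held 171 of the 481 best4-only and 135 of the 2298 cftr-only barcodes. Lysosome-rich enterocyte-like barcodes made up 15 and 538 of them. The part of that mix in the differences was not tested.

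The medians over the 9 libraries show the size of these gaps. The apolipoprotein gene apoa4a had a median of 5193 CPM in best4-only and 1095 CPM in cftr-only barcodes, and rbpms had 9.56 CPM in best4-only and 143 CPM in cftr-only barcodes. Over all libraries with such barcodes, the median library had a median of 3085 UMIs in best4-only and 7352 UMIs in cftr-only barcodes. edgeR called 0 genes without the library block (187 at an unadjusted p under 0.05) and 0 of 209 after thinning to 1000 UMIs (16 at an unadjusted p under 0.05), and DESeq2 with the block called 252. With 1 library left out, edgeR called 0 genes without Boulengerochromis microlepis (390 at an unadjusted p under 0.05) or Xenotilapia spiloptera (366), and 1 without Eretmodus cyanostictus, Triglachromis otostigma or Limnotilapia dardennii. It called 2 without Petrochromis orthognathus and 8 without Oreochromis niloticus. It called 92 without Lepidiolamprologus elongatus and 130 without Haplotaxodon microlepis, which gave 217 of the best4-only barcodes. The CFTR regulation list had 3 members tested and none called (unadjusted p under 0.05 in 0, against 470 of all 2515 genes).

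Over the 35 clusters, other genes followed best4 and cftr more closely than the 2 followed each other. Spearman's rho was taken between mean levels in clusters, over 16552 genes, and clusters share libraries and depth. Among those most like best4 were gprc5c (0.87), myo10 (0.86), nox1 (0.85) and irs2 (0.83). Most like cftr were magi1 (0.87), rbpms (0.86), ephb3 (0.85), lg17h1orf226 (0.84) and apbb2 (0.83). Between best4 and cftr rho was 0.79, which ranked cftr 69th for best4 and best4 81st for cftr. The relative order of low levels across clusters weighs as much as the peak in cluster 20 in this measure.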

How the data were processed

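Per the file headers, the authors made the matrices with Cell Ranger, version 5.0 per the submitters' processing notes. The deposited values are raw UMI counts per gene and barcode, with no normalization; the deposited barcode and gene name columns (unit: other) hold no measurement. Build, annotation and cell-calling settings are not given in the sources used here, so no positions or sequences are printed. Of 42622 features, 30456 have a LOC identifier in place of a symbol and are not named; a second copy of either gene under such an identifier was not looked for.

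Barcodes with at least 500 UMIs and 250 genes were kept, and doublets, called in each library from simulated doublets, were dropped at 0.8% per 1000 barcodes. Clustering left out best4, cftr and 13 mitochondrial genes and used 2000 variable genes, 30 principal components, a Harmony correction for library, 20 neighbours and Leiden resolution 1. A cluster was named "like" a type when at least 3 of its markers were up by 2 times at 10 CPM or more. Epithelial clusters had a pan-epithelial sum at least 3 times the leukocyte sum and at least 4 of 6 markers. This rule was set after the clusters were seen. The members, gene lists and the 2 gene-wide comparisons were chosen with earlier results of these data known. Named genes are the 10 largest in each direction with a symbol, an adjusted p under 0.05, a mean of at least 10 CPM and the same direction in at least 80% of libraries, and all tested list members.

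Classes needed at least 10 barcodes per library in the gene-wide tests, and at least 20000 UMIs per library in at least 10 libraries in the tests between classes. Both gene-wide tests compare classes within the same library, so the library is a block. Scripts were tested on simulated data. Tests across genes ran in R 4.3.3 with edgeR 4.0.16 and, as an alternative, DESeq2 1.42.0. Other steps ran in Python 3.11.15 with pandas 2.3.3, leidenalg 0.10.2, scikit-learn 1.9.0, matplotlib 3.10.9, numpy 2.4.6, python-igraph 0.11.9 and scipy 1.17.1. Alternatives changed the filters, doublets, depth, detection limit, pseudocount, size factors, low-count filter, library block, cluster resolution and the libraries included. The checks against T- or NK-like barcodes, the relation inside and outside cluster 20, the comparison inside and outside it, the barcodes with at least 10 UMIs, and the results without Haplotaxodon microlepis and Trematocara zebra were chosen after seeing the data. Some genes that the naming rule selects are not reported here.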

Additional observations from a re-analysis of the deposited data

How the results depend on the processing

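Medians of the levels, shares and overlap moved by less than 1 SD over libraries under every alternative run. That limit is wide, since the SD of the best4 level (47.7 CPM) exceeds its median (31.3 CPM). Thinning to 1000 UMIs per barcode took the median cftr share from 3.40% to 1.88%. It took the median ratio of observed to expected double-positive barcodes from 20.3 to 36.3. The relation of best4 with cftr kept its sign and its call, with r between 0.76 and 0.84 over all barcodes and between 0.83 and 0.89 in epithelial clusters when each library was left out. Of the 6 weak relations, those of cftr with depth and of both genes with the number of barcodes changed sign in places. The r of cftr with depth was -0.022 with doublets kept and -0.039 at a minimum of 1000 UMIs, and the r of cftr with the number of barcodes was 0.0080 at that minimum. Leaving out a library gave r from 0.03 to 0.29 for best4 with depth, -0.26 to 0.024 for best4 with the number of barcodes, -0.32 to -0.18 for best4 with the epithelial share, -0.12 to 0.15 for cftr with depth, -0.25 to 0.053 for cftr with the number of barcodes and -0.34 to -0.17 for cftr with the epithelial share. The number of neighbouring class pairs called for cftr was 1 at Leiden resolution 2 and 1 at a stricter minimum of UMIs per class, against 0.

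For double-positive against double-negative barcodes, leaving out a library gave 928 to 1097 higher and 1419 to 1709 lower genes. Without the low-count filter 5129 genes were lower, and the median of all genes shifted by -0.20 on the log2 scale. Without the replicate block, the library term, 427 were higher and 255 lower, and after thinning 445 were higher and 735 lower among the 2039 genes that could be tested. For best4-only against cftr-only barcodes the range over left-out libraries was 0 to 64 higher and 0 to 66 lower. DESeq2 called 132 higher and 120 lower, and the fit without the low-count filter 90 higher and 425 lower. With doublets kept 2 were higher and 1 lower. Without the replicate block 0 were higher and 0 lower, and after thinning 0 were higher and 0 lower. Uncalled members of that comparison changed sign with 1 library left out, within -0.40 to 0.12 for ezr, -0.42 to 0.10 for pdzk1 and -0.60 to 0.054 for slc12a1. In double-positive barcodes kcnj15 lost its call without Limnotilapia dardennii, and slc4a4 passed in 6 alternatives. The cause was not tested, beyond the fewer genes or samples in some fits. A fit of the second comparison with at least 20 barcodes per class could not be made, since 1 library qualified. Depth limits calls on single UMIs.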

Other observations

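High cftr without best4 was rare and lay largely outside cluster 20. With at least 10 cftr UMIs, 64 barcodes in 18 libraries held no best4 UMI and 824 held at least 1, and 696 of the 824 but 15 of the 64 were in cluster 20. Cluster 17 held 21 of the 64, from 11 libraries, and cluster 32, led by the carboxypeptidase gene cpb1, held 5. The 64 carried 7.41% of all cftr UMIs and had a median of 12378 UMIs, against 5802 UMIs in the 824. The gene onecut1 encodes a transcription factor known from ducts of liver and pancreas. A onecut1 UMI was found in 51.6% of the 64 and 4.73% of the 824, against 4.26% of all epithelial barcodes. A meis1 UMI was found in 62.5% of the 64 and 85.8% of the 824, against 3.71% of all epithelial barcodes. The part of the greater depth of the 64 in these shares was not tested.

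Callochromis pleurospilus had the highest single values. One barcode in cluster 17 held 376 cftr and 0 best4 UMIs among 56548, and 1 in cluster 32 held 156 cftr and 0 best4 UMIs among 41295. The 7 barcodes of that species in cluster 17 held 584 cftr and 0 best4 UMIs. Of these barcodes 6 held onecut1. High best4 without cftr was seen in 6 barcodes of 3 libraries, all in cluster 20. The largest best4 count of a barcode was 195, in an enteroendocrine-like barcode of Trematocara zebra with 21 cftr UMIs among 34327. These barcodes were picked by their counts and are described with no test.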
